A study of Mus musculus with 12 samples.

Results

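The genes described here are 10 markers of cardiac fibroblasts, taken as all probes that the array platform's annotation gives to Pdgfra, Tcf21, Dcn, Lum, Fstl1, Dpt, Pi16, Meox1, Thy1 or Ddr2. They are 10 of 19053 genes with a probe, and they have 16 of the 45281 probes on the array. RNA came from primary cultures labelled as cardiac myocytes, isolated with collagenase from hearts of C57BL/6 mice aged 12 to 16 weeks and plated on laminin in a medium with albumin and the contraction inhibitor BDM. The 6 CTGF cultures received CTGF at 200 nmol/L (connective tissue growth factor, a secreted matricellular protein) for 48 h. The 6 control cultures were cultured without it. The labels do not say whether the cultures came from separate hearts, so p-values speak only of the spread among these 12 samples, part of which may be technical.

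Fibroblasts lie between the myocytes of the heart and make most of its interstitial collagen and proteoglycan matrix. Resting cardiac fibroblasts of the mouse carry the growth factor receptor PDGFRα and the transcription factor TCF21, which they need in development, and on injury they can turn into matrix-producing, contractile cells. A collagenase preparation of myocytes can carry fibroblasts along with it. In such a bulk sample, fewer fibroblasts and less of a transcript per fibroblast cannot be told apart.

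Each gene was set by its brightest detected probe, and values are log2 intensities after background correction and quantile normalization. A probe was tested if it was detected, at a detection p-value under 0.05, on at least 6 of the 12 arrays. Of the 10 markers 8 passed this filter, and 11 of their 16 probes. The filter let Tcf21 through on its 6 control arrays and 2 CTGF arrays. Of the 8 markers, 4 fell with CTGF (Pdgfra, Tcf21, Pi16 and Dpt), 1 rose (Meox1) and 3 did not pass the test (Dcn, Lum and Fstl1). Among all 8905 genes tested, limma called 45.8% at a Benjamini-Hochberg adjusted p under 0.05, with 21.3% lower and 24.6% higher. The counts of 4 lower and 1 higher among 8 markers are to be read against those shares. The arrays of the groups did not overlap for 4 of the 8 markers, against 25.1% of all genes.

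RefSeq (GRCm38.p6) promoter windows of 300 bases, from 250 bases before to 50 after the transcription start, were at hand for 6 of the 10 markers. The windows of the 4 markers that fell are shown to let their sequence be read beside their change. They are written 5′ to 3′ on the strand of the gene, with matches to the E-box, the element CANNTG that basic helix-loop-helix factors such as TCF21 bind, in capitals.
Pdgfra, chr5:75152001-75152300, plus strand: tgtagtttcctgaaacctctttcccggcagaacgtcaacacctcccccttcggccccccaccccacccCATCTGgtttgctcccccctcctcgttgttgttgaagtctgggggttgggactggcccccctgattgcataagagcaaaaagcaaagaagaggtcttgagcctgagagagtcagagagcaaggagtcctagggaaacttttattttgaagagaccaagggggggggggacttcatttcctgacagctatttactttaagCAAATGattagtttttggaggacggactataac
Tcf21, chr10:22820094-22820393, minus strand: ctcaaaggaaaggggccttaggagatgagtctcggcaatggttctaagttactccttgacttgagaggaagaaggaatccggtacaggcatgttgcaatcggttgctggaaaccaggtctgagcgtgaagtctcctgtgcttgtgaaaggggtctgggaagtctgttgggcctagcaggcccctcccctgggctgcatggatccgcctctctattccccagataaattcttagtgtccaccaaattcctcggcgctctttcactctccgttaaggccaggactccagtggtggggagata
Pi16, chr17:29318632-29318931, plus strand: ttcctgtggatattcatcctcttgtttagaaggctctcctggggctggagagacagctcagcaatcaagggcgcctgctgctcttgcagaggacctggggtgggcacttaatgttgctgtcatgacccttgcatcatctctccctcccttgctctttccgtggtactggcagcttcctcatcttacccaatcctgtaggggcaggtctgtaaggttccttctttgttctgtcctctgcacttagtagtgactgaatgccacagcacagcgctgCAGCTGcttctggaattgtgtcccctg
Dpt, chr1:164796413-164796712, plus strand: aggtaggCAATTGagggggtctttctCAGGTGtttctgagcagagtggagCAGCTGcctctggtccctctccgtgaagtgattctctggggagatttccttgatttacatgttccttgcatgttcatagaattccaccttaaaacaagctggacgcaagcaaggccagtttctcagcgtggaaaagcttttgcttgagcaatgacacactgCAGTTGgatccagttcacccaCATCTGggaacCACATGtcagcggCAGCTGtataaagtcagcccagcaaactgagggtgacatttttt
Both strands were searched, and CANNTG reads the same on each. The E-box had 2 matches in the Pdgfra window, 0 in the Tcf21 window, 1 in the Pi16 window and 7 in the Dpt window. It was present in 72.3% of 32851 promoter windows of this length, so that a match in 3 of these 4 is a description of the letters only. The window of Ddr2 held 1 match and that of Fstl1 none. The AP-1 element TGANTCA, found in 7.8% of all windows, had no match in any of the 6. The GC box GGGCGG had 2 matches in the Fstl1 window and none in the other 5, against 35.7% of all windows with a match. GC content was 66.7% in the Fstl1 window, 53.3% in those of Tcf21 and Pi16, 51.0% in that of Pdgfra, 48.7% in that of Dpt and 39.0% in that of Ddr2.

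Pdgfra, the receptor tyrosine kinase for platelet-derived growth factors that marks most cardiac fibroblasts, had the largest change of the 8 tested markers. Its log2 intensity was 5.56 at the lowest, 5.97 at the median and 6.22 at the highest of the 6 CTGF arrays, against 8.16, 8.28 and 8.42 in the 6 controls. All CTGF arrays lay well below all controls, and the probe was detected on all 12. The means were 5.93 ± 0.23 with CTGF and 8.28 ± 0.11 in controls (SD, n = 6 each). The resulting log2 fold change was -2.35 ± 0.11 (SE, with limma adjusted p = 3.72e-10), so controls were 5.10-fold higher. Raw intensity, as deposited, was 99.5 to 143 with CTGF and 252 to 389 in controls. Without background correction the log2 fold change was -1.53. A second Pdgfra probe, designed on another transcript record, was detected on none of the 12 arrays.

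Tcf21 encodes a basic helix-loop-helix transcription factor of epicardium-derived fibroblasts. It had log2 intensities of 4.48, 4.68 and 4.98 (lowest, median, highest) with CTGF, against 5.88, 6.15 and 6.41 in controls. The groups were separate, with the CTGF arrays close to the array background. CTGF over control gave a log2 fold change of -1.43 ± 0.12 (SE, with limma adjusted p = 2.62e-07), with detection on 2 of 6 CTGF arrays and 6 of 6 controls. Without background correction it was -0.58.

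Pi16, a peptidase inhibitor gene that marks a resting, adventitial type of fibroblast in several mouse tissues, was lower on every CTGF array. Its log2 intensity was 4.80, 5.16 and 5.48 with CTGF, against 6.11, 6.29 and 6.98 in controls (lowest, median, highest). The groups did not overlap after normalization, while in raw intensity CTGF replicate 1, at 104.7, was just above control replicate 1, at 104.3. Its log2 fold change came to -1.20 ± 0.15 (SE, with limma adjusted p = 1.37e-05), and -0.53 without background correction. Detection held on 5 of 6 CTGF arrays and 6 of 6 controls.

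Dpt encodes dermatopontin, a small matrix protein that binds decorin. Its log2 intensity was 6.02, 6.26 and 6.83 with CTGF, against 6.66, 7.08 and 7.19 in controls (lowest, median, highest). After normalization the groups overlapped through CTGF replicate 4, the highest of its group, while the other 5 CTGF arrays lay below every control. In raw intensity the overlap was wider, at 122 to 151 with CTGF and 136 to 191 in controls. The normalized values made a log2 fold change of -0.69 ± 0.13 (SE, with limma adjusted p = 5.21e-04). It was -0.40 without background correction, and without normalization between arrays the call was lost, at -0.33 (adjusted p = 0.0635).

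Meox1, a homeobox transcription factor that is linked to fibroblast activation in stressed mouse hearts, was the 1 tested marker that rose. Its log2 intensity was 7.61, 7.81 and 7.98 with CTGF, against 6.55, 6.66 and 6.75 in controls (lowest, median, highest). The groups were far apart, and the spread within each was small, with an SD of 0.12 with CTGF and 0.072 in controls. Meox1 changed by 1.15 ± 0.079 on the log2 scale (SE, with limma adjusted p = 2.24e-08), a 2.21-fold rise, with detection on all 12 arrays. Raw intensity was 242 to 351 with CTGF, against 129 to 152 in controls.

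**Figure D1:**
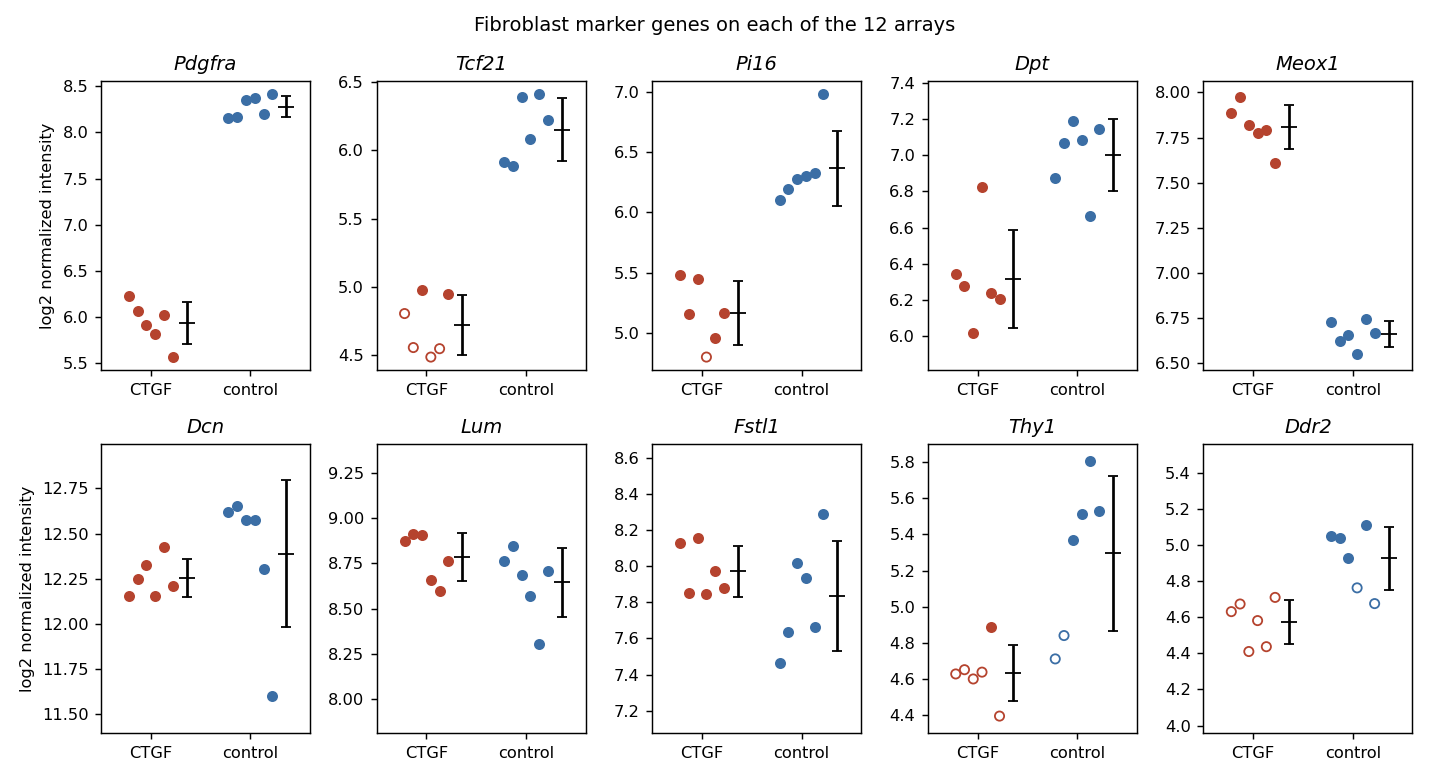
Log2 normalized intensity of each of the 10 markers on the 6 CTGF arrays (red) and the 6 control arrays (blue), with mean ± SD in black. Filled points are arrays on which the probe was detected, open points those on which it was not, and each panel has its own scale. Pdgfra, Tcf21 and Pi16 lie lower and Meox1 higher on all CTGF arrays, while Dcn, Lum and Fstl1 overlap and Thy1 and Ddr2 are close to background.

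Dcn and Lum encode decorin and lumican, small leucine-rich proteoglycans that bind collagen fibrils. The brightest Dcn probe had log2 intensities of 12.15, 12.23 and 12.42 with CTGF, against 11.60, 12.58 and 12.65 in controls (lowest, median, highest). The CTGF arrays lay inside the range of the controls, and the low end of that range was control replicate 6 alone. The difference was -0.13 ± 0.15 on the log2 scale (SE, with limma adjusted p = 0.501), with a 95% interval of -0.46 to 0.19. Without control replicate 6 it was -0.29 (adjusted p = 0.0164). The sign turned under median scaling (0.056), with no between-array normalization (0.081) and as the mean of the detected probes (0.028).

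Dcn had 2 further probes above the filter, and they did not move alike. The second bright probe changed by -0.20 ± 0.17 (SE), with limma adjusted p = 0.385 over the 15038 probes tested. A dim probe was detected on 6 of 6 CTGF arrays and 3 of 6 controls and rose by 0.42 ± 0.13 (adjusted p = 0.0143 over all probes), where 43.5% of all probes were called. That probe had log2 intensities of 4.99 to 5.71 with CTGF, against 4.72 to 5.12 in controls, so the groups overlapped. Control replicate 6 was the lowest control for all 3 of these Dcn probes. The last Dcn probe was detected on 2 of 6 CTGF arrays and 2 of 6 controls and was not tested.

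For Lum, the brightest probe had log2 intensities of 8.60, 8.82 and 8.91 with CTGF, against 8.30, 8.70 and 8.85 in controls (lowest, median, highest), and 3 of 6 CTGF arrays lay above every control. The brightest probe changed by 0.14 ± 0.10 on the log2 scale (SE, with limma adjusted p = 0.275), with a 95% interval of -0.074 to 0.35. The other Lum probe pointed the other way, at -0.26 ± 0.11 (adjusted p = 0.0679 over all probes), with 7.50 to 7.96 with CTGF and 7.72 to 8.20 in controls. The direction of Lum therefore differed between its probes, and neither passed the test.

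Fstl1 encodes follistatin-like 1, a secreted glycoprotein of the SPARC family. Its log2 intensity was 7.85, 7.93 and 8.16 with CTGF, against 7.46, 7.80 and 8.29 in controls (lowest, median, highest). All CTGF arrays lay within the spread of the controls. The change was 0.14 ± 0.13 on the log2 scale (SE, with limma adjusted p = 0.406), with a 95% interval of -0.14 to 0.41. These intervals do not show that Dcn, Lum and Fstl1 were equal in the groups, but they leave out a change of 2-fold, which is 1 on the log2 scale. Lum and Fstl1 were called higher without normalization between arrays, at 0.59 and 0.57, where the median of all genes rose by 0.35, and under median scaling, at 0.57 and 0.55, where that median was 0.32.

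**Figure D2:**
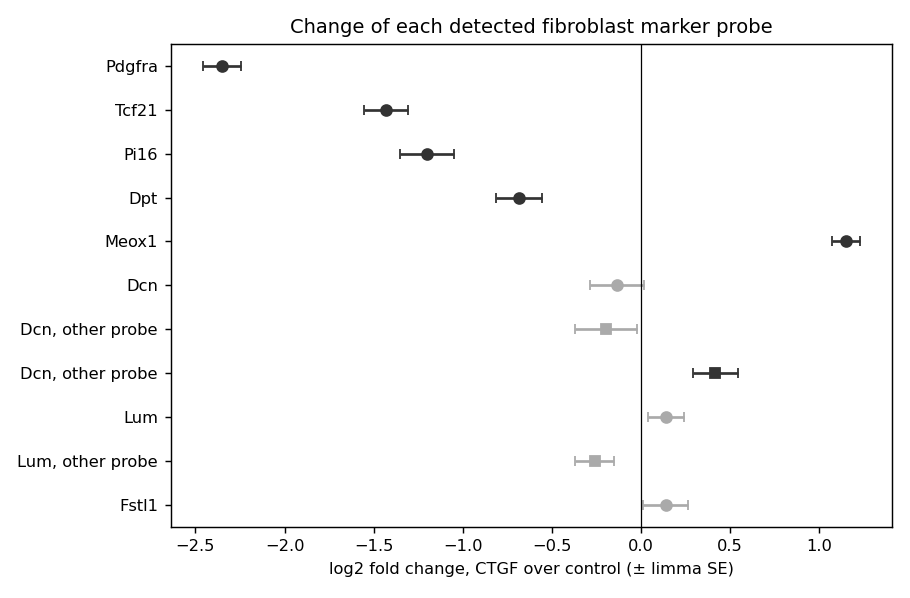
Log2 fold change of CTGF over control, with limma standard error, for the 11 marker probes that passed the filter. Circles are the probe that stands for its gene, squares other probes of the same gene, and dark symbols have an adjusted p under 0.05 over all probes. Pdgfra is lowest at -2.35 and Meox1 highest at 1.15, and the probes of Dcn (-0.13, -0.20 and 0.42) and Lum (0.14 and -0.26) disagree in sign.

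Thy1, a glycoprotein anchored in the membrane of fibroblasts, neurons and T cells, and Ddr2, a receptor tyrosine kinase that binds fibrillar collagen, did not pass the filter. Of the Thy1 probes, 1 was detected on 1 of 6 CTGF arrays and 4 of 6 controls, with log2 intensities of 4.40 to 4.89 with CTGF, against 4.71 to 5.81 in controls. The second Thy1 probe was detected on no array. The Ddr2 probe was not above background on any CTGF array and was detected on 4 of 6 controls, at 4.41 to 4.71 with CTGF against 4.68 to 5.11 in controls. For Ddr2 the CTGF arrays were on average at least 1.06-fold lower. That bound takes, for each CTGF array, the higher of the probe's own signal and the dimmest detected signal. It compares means without sampling error, and the control mean includes the arrays on which the probe was not detected. For both genes the highest CTGF array lay above the lowest control, and most signals were near background.

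Within a group, most arrays lay above the median of their group for some markers and below it for others. CTGF replicate 4 was below the median of its group for 7 of the 8 tested markers, and CTGF replicate 1 and control replicate 6 were each above it for 7 of 8, and whether such counts differ from those of other genes was not tested. Control replicate 6 was the highest control for 3 of the 8 and the lowest for Dcn. The range among the 6 controls was widest for Dcn, at 1.05 on the log2 scale, and narrowest for Meox1, at 0.20. Among the 6 CTGF arrays it was widest for Dpt, at 0.81, and narrowest for Dcn, at 0.27.

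Likeness over the 12 arrays was taken as the root mean square difference between log2 values centred on each gene's own mean. Genes picked this way have fold changes like the marker's by the choice itself, so the values below are a description only. The 3 genes nearest to Pdgfra were Icam2 (0.13), Ifit3 (0.16) and Esm1 (0.16), where the median over all genes was 1.22. Their log2 fold changes were -2.26, -2.39 and -2.11, with -1.51 at a second Ifit3 probe. Nearest to Tcf21 were Arhgap18 (0.16), Gpr182 (0.18) and Rhoj (0.18), against a median of 0.79. The brightest Gpr182 probe was not above background on any CTGF array. On the background-corrected scale it was at least 1.78-fold lower there, and without background correction its log2 fold change was -0.46. The second Gpr182 probe changed by -0.74. Arhgap18 changed by -1.36, or -0.67 without background correction, and Rhoj by -1.42. Nearest to Meox1 were Gtpbp2 (0.12), Atg13 (0.12) and Ccdc68 (0.13), against a median of 0.60, with log2 fold changes of 1.09 in each and 0.76 at a second Gtpbp2 probe.

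Other genes that fibroblasts express strongly were mostly lower or uncalled. Of 22 such genes 13 were tested, 8 fell, none rose and 5 did not pass the test, where 21.3% of all genes fell and 24.6% rose. Their median log2 fold change was -0.62, against 0.034 over all genes. Mgp, a matrix inhibitor of calcification, averaged 14.20 ± 0.16 with CTGF and 15.18 ± 0.10 in controls (SD, n = 6 each), a change of -0.99 ± 0.090 (SE). The intermediate filament gene Vim changed by -0.92 ± 0.094, and S100a4, detected on 4 of 6 CTGF arrays, by -1.10 ± 0.14. Cd34, a surface sialomucin of endothelial and stromal progenitor cells, changed by -1.13 ± 0.17, with detection on 1 of 6 CTGF arrays. Without background correction the change was -0.46 for Cd34 and -0.45 for S100a4. With no between-array normalization, or under median scaling, 5 of the 13 fell and 1 rose. The collagen genes Col1a1 and Col3a1 were not among those tested. Col1a2, detected on 6 of 6 CTGF arrays and 3 of 6 controls, was not called (0.34 ± 0.14, limma adjusted p = 0.0662). Islr and Gas1 were detected on no array.

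Of 14 genes of fibroblast activation 6 were tested, 2 rose and 2 fell, and the 24.6% higher and 21.3% lower among all genes leave nothing to read from so small a count. Lox, which cross-links collagen, was not detected on any of the 6 control arrays. After background correction it was at least 2.68-fold higher in CTGF cultures (limma adjusted p = 1.34e-09), with measured means of 6.30 with CTGF and 4.57 in controls. That bound holds on the background-corrected scale only, as the log2 fold change was 0.73 without background correction. Lox passed the filter through its 6 CTGF arrays alone, so it was not tested when a CTGF array was left out. The matrix glycoprotein gene Tnc rose by 1.17 ± 0.13 (SE), with 1.18 at its other probe. Fn1, which encodes fibronectin, changed by -0.74 ± 0.099, or -0.41 without background correction. The smooth muscle actin gene Acta2, a mark of myofibroblasts and of smooth muscle, changed by -0.71 ± 0.082, with -0.40 to -0.83 at its 3 other probes. Postn, Fap, Tagln, Ltbp2, Cilp and Thbs4 were detected on no array. With no between-array normalization, or under median scaling, 4 of the 6 rose, and 1 did over genes detected on all 12 arrays or when any of CTGF replicates 1 to 5 was left out.

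The PDGF ligands and receptors moved unequally. Pdgfa, which encodes a ligand of PDGFRα, averaged 12.13 ± 0.18 with CTGF and 10.61 ± 0.16 in controls (SD, n = 6 each), a rise of 1.53 ± 0.10 (SE, limma adjusted p = 1.55e-08). Pdgfb changed by -1.11 ± 0.092. The second receptor gene, Pdgfrb, which marks pericytes, changed by -0.77 ± 0.21, and was not called under median scaling (adjusted p = 0.0559) or with no between-array normalization (adjusted p = 0.0670). Without background correction its change was -0.34. Pdgfc did not pass the test and Pdgfd was detected on no array, so that 1 rose and 2 fell of 4 tested. Beside the 24.6% higher and 21.3% lower among all genes, so small a count leaves nothing to read.

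Of the other small leucine-rich proteoglycans, 3 of 10 were tested. Prelp, detected on 4 of 6 CTGF arrays, changed by -2.15 ± 0.17 (SE), and Ogn, which encodes osteoglycin, by -0.58 ± 0.10, a call lost under median scaling (adjusted p = 0.243) and with no between-array normalization (adjusted p = 0.302). The change of Prelp was -1.12 without background correction. Bgn, which encodes biglycan, rose by 0.36 ± 0.12 (adjusted p = 0.0275). The Bgn call was lost when CTGF replicate 1, 2 or 3 or control replicate 1, 2 or 5 was left out, with adjusted p up to 0.0651. Fmod, Omd, Aspn, Kera, Epyc and Ecm2 were detected on no array.

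Among 6 collagen receptor genes 4 were tested, 2 rose and 1 fell. This count and that of the SPARC and follistatin family are small beside the 24.6% higher and 21.3% lower among all genes. Ddr1, the paralog of Ddr2 found mainly in epithelial cells, rose by 1.02 ± 0.12 (SE, limma adjusted p = 7.57e-06), and the collagen-binding integrin gene Itga11 by 0.51 ± 0.11. Itga1 changed by -0.54 ± 0.14, or -0.20 without background correction, with detection on 3 of 6 CTGF arrays. In the SPARC and follistatin family, to which Fstl1 belongs, none rose and 2 fell of 5 tested. The 3 Sparc probes gave -0.65 ± 0.089 for the brightest, -1.16 and -0.44, the last of them not called (limma adjusted p = 0.103 over all probes). The brightest was not called under median scaling (adjusted p = 0.0783) or with no between-array normalization (adjusted p = 0.114). Sparcl1, the other, was detected on 1 of 6 CTGF arrays and changed by -0.90 ± 0.22, or -0.35 without background correction. The count that fell was 1 under both of those scalings, where Sparc lost its call. It was also 1 over genes detected on all arrays, and when CTGF replicate 6 or any of control replicates 2 to 6 was left out. Sparcl1 passed the filter through 5 controls and 1 CTGF array, so it was not tested in those fits. In the 6 fits with an array left out that did test it, its call held. A rise of 1 gene appeared under both scalings and without CTGF replicate 1.

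Of 13 mesenchymal transcription factor genes 8 were tested, 4 fell and 1 rose. Among all genes tested 21.3% were called lower and 24.6% higher, and so small a count was not read further. Meox2, the paralog of Meox1, moved against it, with 4.97 ± 0.21 with CTGF and 6.10 ± 0.24 in controls (SD, n = 6 each), a log2 fold change of -1.13 ± 0.12 (SE, limma adjusted p = 3.45e-06). Without background correction it was -0.46 for Meox2. The E-protein genes Tcf4 and Tcf12, whose products pair with factors such as TCF21, changed by -0.67 ± 0.096 and 0.76 ± 0.12. The call of Tcf4 was lost without normalization between arrays (adjusted p = 0.0575). Twist1, a factor of mesenchymal cells, changed by -0.65 ± 0.16. Without background correction, Tcf12 changed by 0.33 and Twist1 by -0.29.

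Among markers of other cells that such a preparation can hold, those of endothelial cells and most of those of pericytes and smooth muscle were lower on the same arrays. Their counts are to be read against the 21.3% lower and 24.6% higher among all genes tested. Of 12 endothelial markers 11 were tested and all 11 fell, their median change being -1.63 on the log2 scale and that of Cldn5 -2.63 ± 0.11 (SE), and Kdr was detected on no array. The summed intensity of that list was 2066 to 2449 with CTGF and 7290 to 8774 in controls. Of 11 pericyte and smooth muscle markers 8 were tested, 7 fell and Cspg4 rose (0.84 ± 0.13, or 0.42 without background correction), and the sum was 2904 to 3557 with CTGF and 4941 to 5561 in controls. With no between-array normalization, or under median scaling, 4 of these 8 fell. Of 9 macrophage markers 3 were tested. Lyz2, whose probe may also bind its paralog Lyz1, fell (-1.07, or -0.41 without background correction), with detection on 2 of 6 CTGF arrays. Cd14 (0.18, adjusted p = 0.380) and Csf1r (0.14, adjusted p = 0.525) were not called. C1qa, Ptprc and Fcgr1 were detected on no array. That list summed to 63.7 to 93.1 with CTGF and 85.3 to 174 in controls, and the groups overlapped. The mesothelial list summed to 41.7 to 61.0 with CTGF and 39.1 to 75.8 in controls, with Krt8 the 1 gene tested, at -0.18 ± 0.20, and Msln, Upk1b and Krt19 detected on no array. No Schwann cell marker could be tested, and Sox10 and S100b were detected on no array.

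The fibroblast markers summed to 5521 to 6441 with CTGF and 4533 to 7656 in controls, so the groups overlapped in a sum that is mostly Dcn. The label of the cultures was checked by their own markers: all 9 cardiac myocyte markers on the array were detected and tested, and they summed to 199533 to 230111 with CTGF and 228386 to 246600 in controls. Of these 3 fell, Tnni3 by 0.89, Pln by 0.75 and Actc1 by 0.31 on the log2 scale, while the other 6 were not called. The share called lower among all genes was 21.3%. The calls of Pln and Actc1 were lost without normalization between arrays (adjusted p = 0.0598 and 0.0524). The count that fell was 5 of 9 with the mean of detected probes and with a trended robust variance, and a second Actc1 probe changed by -0.88. The part of endothelial, mural and other cells in the changes of the fibroblast markers was not tested.

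**Figure D3:**
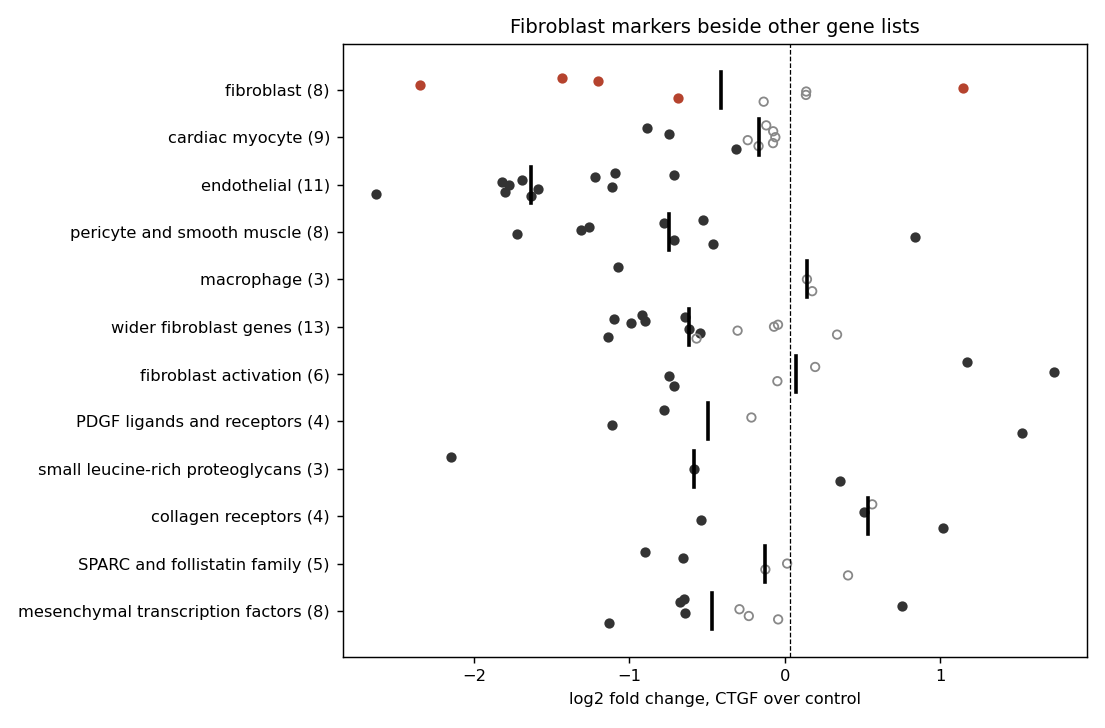
Log2 fold change of CTGF over control for every tested gene of each list with at least 3 tested genes (number in brackets). Filled points were called, open points were not, thick bars are list medians and the dashed line is the median of all genes (0.034). The fibroblast markers reach from -2.35 to 1.15 with a median of -0.41, while every endothelial marker lies at -0.71 or below.

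**Figure D4:**
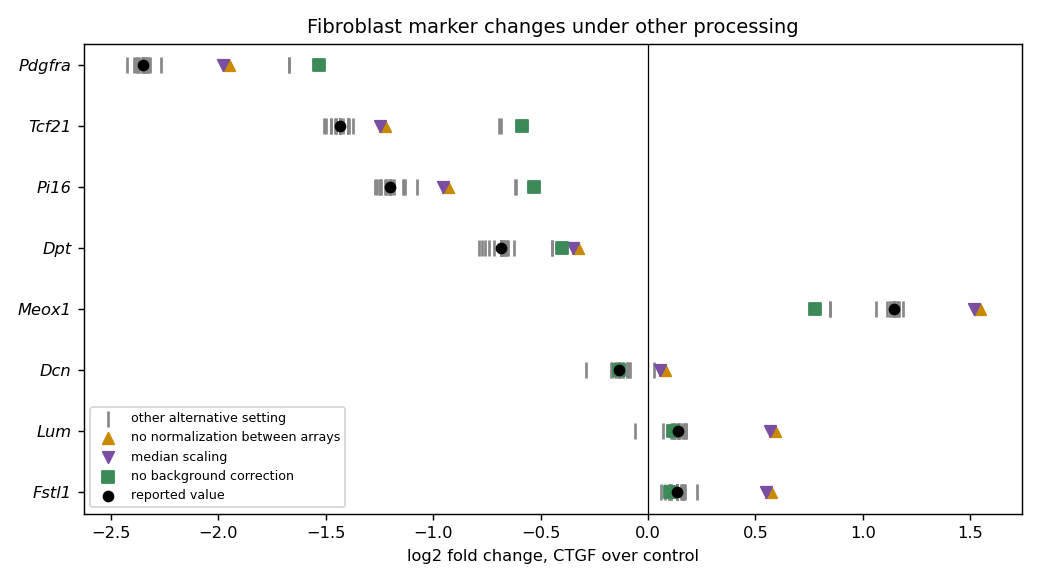
Log2 fold change of CTGF over control for each tested marker as reported (black) and under each alternative setting, with 3 settings marked. Pdgfra, Tcf21 and Pi16 stay below 0 and Meox1 above 0 in all of them, the falls of Tcf21 and Pi16 shrink to -0.58 and -0.53 without background correction, and Lum and Fstl1 shift up without normalization between arrays.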

How the data were processed

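RNA of 6 CTGF and 6 control cultures was measured on Illumina bead arrays in 1 colour after biotin labelling of cRNA, per the labels' protocols. The authors deposited average bead intensity per probe and array, not normalized, with a detection p-value to 2 decimals, per the file headers. A second deposited table holds normalized intensity values, whose sorted columns were within 0.65% of the mean over arrays of the sorted raw intensities, apart from the 10 brightest probes. For scanner software, slides and any earlier background step the answer is not given in the sources used here. A slide that goes with treatment cannot be told apart from it.

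Titles gave each sample its group and number. Of 45281 probes 34885 had 1 gene symbol, 18 several, and 10378 were not listed in the annotation table and are unnamed here. Names were updated by Entrez identifier for 34807 of those with 1 symbol and by accession for 11, while 67 probes kept the annotation's symbol. Log2 values were computed from the deposited intensities by neqc (limma 3.58.1, R 4.3.3), with an offset of 16, which shrinks fold changes of dim genes. Of 15038 probes detected on at least 6 arrays, lmFit and eBayes gave two-sided tests, and p-values were Benjamini-Hochberg adjusted over 8905 genes, each by its brightest probe, or over all 15038 probes where a second probe is given. Fold changes are CTGF over control. Summed list levels are background-corrected and quantile-normalized intensities, less the offset, over the brightest probe of each listed gene, whether detected or not. The number of arrays limits precision, with a median standard error of 0.11 on the log2 scale. No pair of arrays was identical.

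Same-numbered CTGF and control arrays did not deviate together (correlations of -0.05 to 0.03), which gave no ground to pair them by number. Such correlations cannot exclude shared hearts or another pairing. The fit was tested on simulated data. It recovered 90% of log2 changes of 1 and 66.7% of -1, but only 18% of 0.5 and 16.7% of -0.5. Of 90 calls 1 was false. Each change was given to 42 to 50 tested genes, unlike these data, where 45.8% of genes were called. The markers, gene lists, alternatives and rule for named genes were chosen with earlier results of these data known. The rule took all 10 markers, up to 4 called genes a list by size of change (the 2 brightest with under 2 called), and the 3 genes nearest to Pdgfra, Tcf21 and Meox1, and other list members named were chosen after their values were seen. Alternatives were other background corrections, scalings, filters, probe summaries and variance models, array weights, a stricter threshold, the authors' normalized values, fits that left out each array, and a replicate block.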

Additional observations from a re-analysis of the deposited data

Results flagged for a closer look

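Of 16 sets of 6 arrays (8 tested markers in 2 groups), 2 held an array far from the others of its group, and both times it was control replicate 6. Chance flags about 1 in 20 such sets. For Dcn, control replicate 6 had a log2 intensity of 11.60, where the next lowest control was 12.30, a gap of 0.668 of the range. For Pi16, the same array had 6.98, where the next highest control was 6.33, a gap of 0.745 of the range. The log2 fold change of CTGF over control without that array was -0.29 for Dcn (limma adjusted p = 0.0164) and -1.08 for Pi16 (adjusted p = 5.38e-06). Control replicate 6 had 15569 probes detected and a raw median intensity of 73.4, inside the ranges of the other controls, 14747 to 15743 and 71.9 to 74.5.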

How the results depend on the processing

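Pdgfra, Tcf21, Pi16 and Meox1 kept their direction and call under every alternative in which they were tested (25, or 24 for Tcf21 and Pi16, which are not among genes detected on all arrays). Their log2 fold changes ranged from -2.43 to -1.53, -1.51 to -0.58, -1.27 to -0.53 and 0.78 to 1.55. The count of markers called higher, 1 as reported, was 3 under median scaling and 3 with no between-array normalization. The count called lower, 4 as reported, was 2 of 6 tested over genes detected on all arrays and 3 of 8 with no between-array normalization. With no detection filter it was 6 of 10. That fit called Thy1 (-0.66, limma adjusted p = 0.00965) and Ddr2 (-0.35, adjusted p = 0.00700) lower, on signals mostly near background. With each array left out, 1 was called higher and 4 to 5 lower, and 3696 to 4033 of all genes were called. The replicate block left 3828 genes called, against 4080, and changed no marker's call (1 higher, 4 lower). The reported Dcn change reversed under median scaling (0.056), with no between-array normalization (0.081) and as the mean of detected probes (0.028), and that of Lum as the mean of detected probes (-0.061). Of all calls 53.6% were higher under quantile normalization, against 85.0% under median scaling and 86.3% with no between-array normalization. With the authors' normalized values the log2 fold change was -0.69 for Tcf21, -0.61 for Pi16 and -0.45 for Dpt. The causes of these shifts were not tested.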
